A study of Homo sapiens with 4 samples.

Results

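Lysosomal hydrolases and membrane proteins were followed as 43 genes chosen by symbol: the senescence-associated galactosidase gene GLB1, soluble proteases, glycosidases, sulfatases and lipid hydrolases, proteins of the lysosomal membrane, subunits of the vacuolar proton pump and the transcription factor gene TFEB. Of these, 41 were found among the 12033 genes of the expression table, whereas NEU1 and CLN3 had no row and were not analysed here. Genes were compared where their mean level reached 2 RPKM. RPKM is the number of reads scaled by transcript length and by the mapped reads of the library, so that levels of different genes can be set side by side. The filter kept 38 of the 41 genes and 7596 genes of the whole table. MANBA, ASAH1 and TFEB lay under it. The choice used gene function and no measured value, and was made with earlier results of these data known.

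The cells were hTERT-immortalized human BJ fibroblasts carrying inducible RAS G12V (BJ-indRAS G12V), all treated with 4-hydroxytamoxifen (4-OHT) for 14 days, which switches the oncogene on and drives oncogene-induced senescence (OIS), a lasting growth arrest. Every library therefore came from RAS-expressing cells, and none from cells without 4-OHT. The groups differed in the CRISPR-Cas9 guide: sgRNA-NT has no target, the pair sgRNA-AP1-69 and sgRNA-AP1-71 cut the same enhancer, Enh.AP1.OIS1, and sgRNA-FOXF1 cut the coding gene FOXF1, which the labels name as the target of that enhancer. Each condition was sequenced as 1 poly(A) RNA library from a selected pool of transduced cells, so that the populations held mixed edits. The 3 targeted libraries were all compared with the same single sgRNA-NT library. A pattern seen in all 3 is for this reason not seen 3 independent times.

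The lysosome is the acidic compartment in which cells break down proteins, glycans and lipids. Its hydrolases are made in the endoplasmic reticulum, tagged with mannose 6-phosphate in the Golgi and carried to the lysosome by receptors, while a membrane coat of heavily glycosylated proteins shields the cytosol and the vacuolar ATPase (V-ATPase) pumps in protons. Senescent fibroblasts are known for an enlarged lysosomal compartment, and the staining used to detect them, SA-β-Gal, reads the activity of the lysosomal β-galactosidase encoded by GLB1. TFEB and its relatives switch on many lysosomal genes together by binding a short palindromic promoter element called the CLEAR motif.

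The motif could be looked up in the promoters of 31 of the 43 genes, taken from RefSeq (GRCh38.p14) as windows of 300 bases, with 250 before and 50 after the start of the gene. The letters TCACGTGA, which form the core of the CLEAR motif and read the same on both strands, occurred for 6 of the 31 genes (19.4%). Of 27305 genes, 1.18% had them. A gene counted once if any of its windows held the letters. The shorter E-box CACGTG, which lies within that core and so includes its matches, occurred for 11 of 31 genes (35.5%, against 8.77% of all 27305). The full 10-letter palindromic consensus was found for GAA and MCOLN1 alone (6.45%, against 0.421%). The background of 27305 genes holds all genes with a promoter window and was not limited to the 7596 genes compared by expression. Because the CLEAR motif is already tied to lysosomal genes, a higher share among them is a description and no independent finding. Of the 6 genes with the core, 3 held it at 2 places (LAMP1, GAA and MCOLN1). Each place is shown over 30 bases, read along the strand of the gene, because the core is the feature these promoters have in common, and it is in capitals:
LAMP1, first core: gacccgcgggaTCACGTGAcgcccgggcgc
LAMP1, next core: cgcggcgcagcTCACGTGAcaagcgctgcc
GAA, first core: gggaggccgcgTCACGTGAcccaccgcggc
GAA, next core: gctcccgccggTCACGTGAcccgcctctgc
CTSA: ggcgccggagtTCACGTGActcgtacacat
MCOLN1, first core: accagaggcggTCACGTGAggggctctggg
MCOLN1, next core: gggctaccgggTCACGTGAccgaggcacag
ATP6V0D1: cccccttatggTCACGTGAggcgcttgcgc
CLN3: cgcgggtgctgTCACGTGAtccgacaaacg

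The full consensus lies at both cores of GAA and at the next core of MCOLN1. In that build the stretches of LAMP1 lie at chr13:113297199-113297228 and chr13:113297226-113297255, those of GAA at chr17:80101493-80101522 and chr17:80101538-80101567, and those of MCOLN1 at chr19:7522571-7522600 and chr19:7522598-7522627, all on the plus strand. The stretch of CTSA lies at chr20:45891298-45891327 on the plus strand, that of ATP6V0D1 at chr16:67481199-67481228 on the minus strand and that of CLN3 at chr16:28492058-28492087 on the minus strand. The cores began 29 and 2 bases before the annotated start for LAMP1, 77 and 32 for GAA, and 42 and 15 for MCOLN1. The single core began 26 bases before the start for CTSA, 60 for ATP6V0D1 and 2 before an annotated start of CLN3. A match describes the letters of the window and does not show that a factor binds there.

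The identity of the libraries was looked at first. FOXF1 itself was at 29.6 RPKM in sgRNA-NT cells, 11.1 in sgRNA-AP1-69 cells, 7.8 in sgRNA-AP1-71 cells and 25 in sgRNA-FOXF1 cells. The transcript of a cut coding gene can still be counted, so the last value is no check of that guide. The paper reports from a western blot that the FOXF1 knockout was effective. All 11 fibroblast markers had a row, with summed levels between 4086.4 RPKM (sgRNA-NT) and 5673.9 RPKM (sgRNA-AP1-71), although FAP was at the floor of 1 RPKM in each library. The sum was carried by VIM and S100A4. COL1A1, COL1A2 and P4HB were lower by 1.5-fold with both enhancer guides (3 of 10 compared markers, against 8.64% of all genes). COL1A1 was at 120.6 RPKM in the control and 53.7, 42.5 and 115.6 in the targeted libraries. Higher by 1.5-fold were 2, 3 and 5 of the 10 markers (20%, 30% and 50%, against 8.18%, 14% and 11.6% of all genes). LUM and S100A4 were among them in each library, and none was lower with sgRNA-FOXF1. None of 6 epithelial and none of 5 endothelial markers had a row, and of 10 macrophage and leukocyte markers only CD14 had one, at 6.0 to 9.8 RPKM. Other values also moved with the guides. The median log2 ratio of 13 mitochondrially encoded transcripts, which can vary with RNA quality, was -1.02 and -1.54 for the enhancer guides 69 and 71 and -0.77 for the FOXF1 guide. The level of HRAS was 829.4 RPKM in the control, then 446.4, 427.4 and 707.6 in the targeted libraries, and 5 compared proliferation markers had medians of 0.52, 0.78 and 0.62. Within that list PCNA was below the control in each library (-0.18, -0.09 and -0.16), as was MKI67, which lay under the filter (-1.11, -0.72 and -0.81), and TOP2A was at 0.21, -0.06 and -0.18. The part of these differences in the lysosomal values was not tested.

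With sgRNA-NT, the lysosomal transcripts spanned from 1.5 RPKM for TFEB to 549.0 RPKM for CD63. A few genes made up most of the total. The 41 genes summed to 2798.4 RPKM, of which the lipid hydrolases and their cofactors held 936.5, the proteases 875.1, the membrane proteins 704.0, the glycosidases and sulfatases 128.4 and the V-ATPase subunits 124.1. CD63, PSAP, GRN, CTSL and CTSB, in that order, had the 5 highest levels. The plot of levels shows that the order among the abundant genes was kept in broad outline, with CTSL and LIPA as the clearest exceptions.

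**Figure D1:**
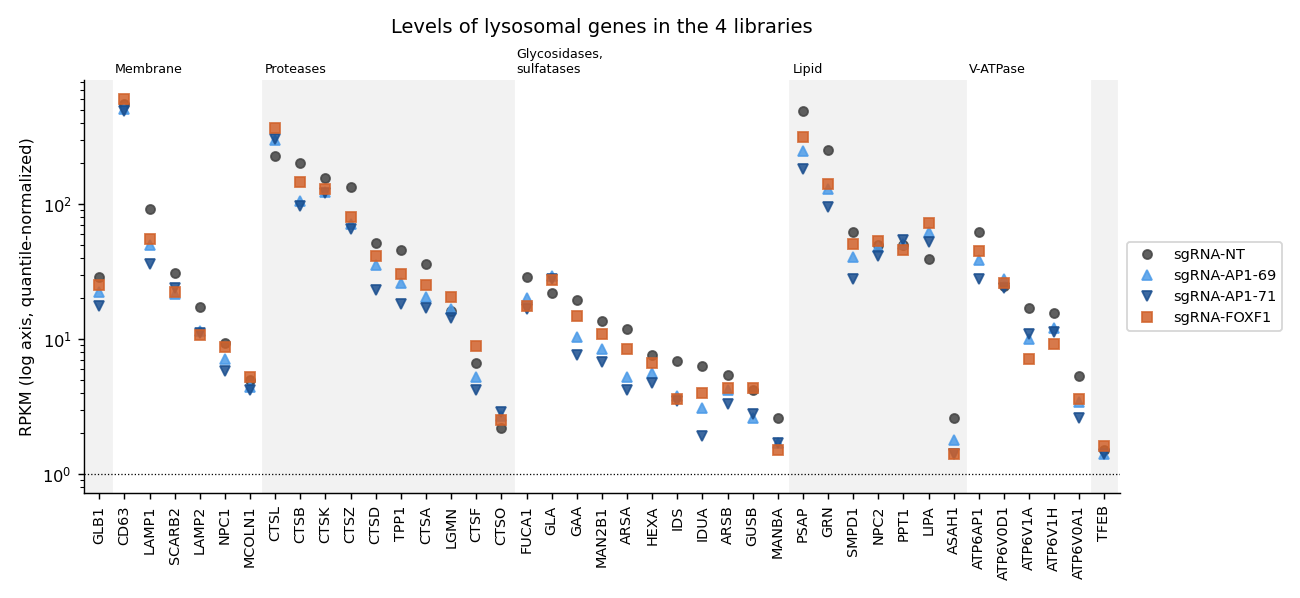
RPKM of each of the 41 lysosomal genes (log axis, quantile-normalized) in the 4 libraries, grouped by role and ordered within a role by the level with sgRNA-NT; GLB1 stands at the left and TFEB at the right. Each point is 1 library, and the dotted line is the floor of 1 RPKM. CD63 had the highest level in each library, and CTSL lay above its sgRNA-NT level in all 3 targeted libraries.

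In the targeted cells, most lysosomal genes were lower than in the control. At a difference of 1.5-fold or more, 18 of the 38 compared genes were lower in sgRNA-AP1-69 cells (47.4%), 25 in sgRNA-AP1-71 cells (65.8%) and 11 in sgRNA-FOXF1 cells (28.9%). Over all genes compared, 9.93%, 14.7% and 13.2% were lower by this rule. Higher by 1.5-fold were 1, 0 and 2 lysosomal genes, while 8.18%, 14% and 11.6% of all genes were higher. The median log2 ratio of the 38 genes was -0.54 in sgRNA-AP1-69 cells, -0.70 in sgRNA-AP1-71 cells and -0.34 in sgRNA-FOXF1 cells, whereas the medians over all genes were 0.07, 0.08 and 0.05. With ratios corrected for GC content of the transcript, a setting added after the data were seen, the medians were -0.52, -0.76 and -0.51, so that sgRNA-FOXF1 and sgRNA-AP1-69 were then about equal. In bulk RNA, fewer cells with a high lysosomal content and less of these transcripts per cell cannot be told apart.

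The 1.5-fold rule is a size and no test, since each ratio rests on 1 library against 1. At 2-fold, 2 of the 38 genes were lower in sgRNA-AP1-69 cells, 15 in sgRNA-AP1-71 cells and 1 in sgRNA-FOXF1 cells, against 3.3%, 6.38% and 4.96% of all genes, so that with sgRNA-FOXF1 the lysosomal share was then below the background.

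Directions were mostly shared. Of the 38 genes, 26 lay below sgRNA-NT in all 3 targeted libraries (68.4%, against a background of 29.2%), and 4 lay above it in all 3, namely CTSL, CTSO, GLA and LIPA (10.5%, against 40.3%). Lower by 1.5-fold in all 3 were 9 genes (23.7%, against 5.85%): LAMP1, LAMP2, CTSZ, TPP1, IDS, IDUA, PSAP, GRN and ATP6V1A. None was higher by 1.5-fold in all 3, whereas 4.98% of all genes were.

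**Figure D2:**
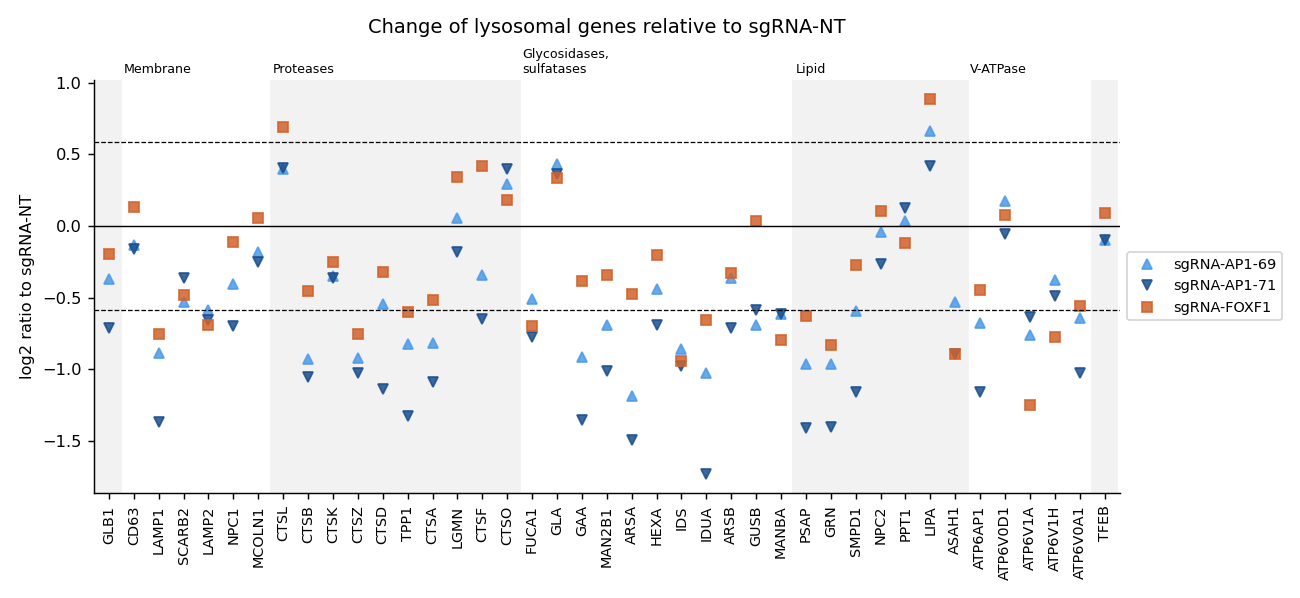
log2 ratio to sgRNA-NT of each lysosomal gene in sgRNA-AP1-69 cells, in sgRNA-AP1-71 cells and in sgRNA-FOXF1 cells, in the order of the plot of levels. Dashed lines mark 1.5-fold. Most points lie below 0, sgRNA-AP1-71 is often the lowest of the 3, and CTSL, CTSO, GLA and LIPA lie above 0 in each library.

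GLB1, the gene of the SA-β-Gal enzyme (chr3:33038101-33138694 in hg19, minus strand), was at 28.8 RPKM in sgRNA-NT cells, 22.3 in sgRNA-AP1-69 cells, 17.6 in sgRNA-AP1-71 cells and 25.1 in sgRNA-FOXF1 cells. All 3 targeted libraries were thus below the control, by 1.29-fold, 1.64-fold and 1.15-fold, and only that of sgRNA-AP1-71 passed 1.5-fold. The paper reports less SA-β-Gal staining with both enhancer guides and with FOXF1 knockout, and a stronger effect for the knockout. Staining reads enzyme activity in cells, which the level of the GLB1 transcript does not measure. The mean log2 ratio of both enhancer guides was -0.54 ± 0.24 (SD, n = 2). With sgRNA-FOXF1 the log2 ratio was -0.20, which is smaller than this SD. Among the 41 genes, GLB1 ranked 18th by level with sgRNA-NT and 18th, 19th and 19th in the targeted libraries, so that its place within the lysosomal set was nearly the same.

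The proteins of the lysosomal membrane were split between LAMP1 and LAMP2, which were lower in each targeted library, and CD63, which differed little. LAMP1 (chr13:113951554-113977987 in hg19), an abundant glycoprotein of the lysosomal coat and a common marker of the organelle, was at 92.4 RPKM in sgRNA-NT cells, 49.9 in sgRNA-AP1-69 cells, 35.8 in sgRNA-AP1-71 cells and 54.8 in sgRNA-FOXF1 cells. These values are 1.85-fold, 2.58-fold and 1.69-fold below the control. LAMP2, its homologue that also serves chaperone-mediated autophagy, was at 17.3, 11.5, 11 and 10.7 RPKM in the same order of libraries, and here the 3 targeted libraries lay close together. CD63, a tetraspanin of late endosomes, lysosomes and exosomes, was at 549.0, 501.8, 490.4 and 601.0 RPKM, with log2 ratios of -0.13, -0.16 and 0.13. Of 6 membrane genes compared, 2, 3 and 2 were lower by 1.5-fold (33.3%, 50% and 33.3%) and none was higher. Over all genes, 9.93%, 14.7% and 13.2% were lower.

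NPC1, the membrane transporter that exports cholesterol from the lysosome, was at 9.4, 7.1, 5.8 and 8.7 RPKM. It passed 1.5-fold with sgRNA-AP1-71 only. SCARB2, also called LIMP-2, the receptor that brings glucocerebrosidase to the lysosome, was at 30.9 RPKM and then 21.4, 24 and 22.1 RPKM, lower in all 3 and within 1.5-fold. MCOLN1, the calcium channel of the lysosome, was at 5.0, 4.4, 4.2 and 5.2 RPKM, within 1.19-fold of the control in each library, and its promoter holds the full CLEAR consensus at the core nearer to the start.

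Among the proteases, cathepsins B, Z, A and D and the tripeptidyl peptidase TPP1 were lower in each targeted library, and cathepsin L was higher. CTSZ, a carboxypeptidase (chr20:57560741-57583293 in hg19), was at 133.7 RPKM in sgRNA-NT cells, 70.6 in sgRNA-AP1-69 cells, 65.6 in sgRNA-AP1-71 cells and 79.5 in sgRNA-FOXF1 cells. Its guides agreed closely, with a mean log2 ratio of -0.97 ± 0.07 (SD, n = 2). TPP1, which removes tripeptides from protein ends, was at 45.7, 25.8, 18.2 and 30.2 RPKM. CTSB, an abundant cysteine protease, was at 200.4, 105.3, 96.8 and 146.1 RPKM, and so about equally low with both enhancer guides and less so with sgRNA-FOXF1. CTSD, the main aspartyl protease of the lysosome, was at 51.1, 35.1, 23.2 and 40.9 RPKM, which spread more between the guides (-0.84 ± 0.42 on the log2 scale, SD, n = 2). CTSA, which protects β-galactosidase and neuraminidase in a complex, was at 36.0, 20.4, 16.9 and 25.2 RPKM.

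CTSL, a cysteine protease of broad specificity (chr9:90338966-90346384 in hg19), was at 228.0 RPKM in sgRNA-NT cells, 300.4 in sgRNA-AP1-69 cells, 301.1 in sgRNA-AP1-71 cells and 367.9 in sgRNA-FOXF1 cells. The enhancer guides gave nearly the same ratio, 0.40 each on the log2 scale, and sgRNA-FOXF1 gave 0.69, the only value of the gene past 1.5-fold. CTSL was 4th in level among the lysosomal genes in the control and 2nd in each targeted library. CTSO, a little-studied cysteine protease, also lay above the control but near the filter, at 2.2, 2.7, 2.9 and 2.5 RPKM. CTSK, the collagen-degrading cathepsin, was at 155.3 RPKM and then 121.9, 120.6 and 130.2 RPKM, lower in all 3 and within 1.5-fold. LGMN, an asparaginyl endopeptidase that matures cathepsins, was on both sides of the control, at 16.1, 16.7, 14.2 and 20.4 RPKM. CTSF, a cathepsin of the papain family, was at 6.6, 5.2, 4.2 and 8.8 RPKM, below the control with both enhancer guides and above it with sgRNA-FOXF1. Of 10 proteases compared, 4, 6 and 2 were lower by 1.5-fold (40%, 60% and 20%, against 9.93%, 14.7% and 13.2% of all genes). Higher were 0, 0 and 1 (0%, 0% and 10%, against 8.18%, 14% and 11.6%). The medians of the proteases were -0.45, -0.84 and -0.29.

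The glycosidases and sulfatases, which take sugar chains apart, were lower by 1.5-fold for 6 of 10 genes in sgRNA-AP1-69 cells, 9 in sgRNA-AP1-71 cells and 3 in sgRNA-FOXF1 cells. These are 60%, 90% and 30%, against 9.93%, 14.7% and 13.2% of all genes. The medians of the class were -0.69, -0.88 and -0.36. IDUA, which removes iduronic acid from heparan and dermatan sulfate, differed most of the 41 genes by its mean absolute log2 ratio, at 6.3 RPKM in sgRNA-NT cells, 3.1 in sgRNA-AP1-69 cells, 1.9 in sgRNA-AP1-71 cells and 4.0 in sgRNA-FOXF1 cells. Such low values are rounded to 1 decimal and lie near the floor, and the guides differed by 0.71 on the log2 scale. IDS, the sulfatase that acts on the same chains, was at 6.9, 3.8, 3.5 and 3.6 RPKM. In contrast to IDUA, the 3 targeted libraries of IDS agreed, with log2 ratios of -0.86, -0.98 and -0.94. ARSA, the sulfatase that degrades sulfatide, was at 11.8, 5.2, 4.2 and 8.5 RPKM, more than 2-fold below the control with each enhancer guide and 1.39-fold below it with sgRNA-FOXF1. GAA, the acid glucosidase that breaks down glycogen, was at 19.4, 10.3, 7.6 and 14.9 RPKM, the same order of libraries as ARSA.

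Of the remaining enzymes of this class, MAN2B1, an α-mannosidase, was at 13.7, 8.5, 6.8 and 10.8 RPKM. FUCA1, the fucosidase and the most abundant of the class in the control, was at 28.7, 20.2, 16.8 and 17.7 RPKM. Its levels with sgRNA-FOXF1 and sgRNA-AP1-71 were nearly equal. HEXA, the α chain of β-hexosaminidase, was at 7.6, 5.6, 4.7 and 6.6 RPKM, and ARSB, which acts on dermatan sulfate, was at 5.4, 4.2, 3.3 and 4.3 RPKM. Both passed 1.5-fold with sgRNA-AP1-71 only. GUSB, β-glucuronidase, was at 4.2, 2.6, 2.8 and 4.3 RPKM, at the control level with sgRNA-FOXF1 and, with sgRNA-AP1-71, exactly at the 1.5-fold limit. GLA, the α-galactosidase that clears globotriaosylceramide, was the exception, at 21.8, 29.4, 28.0 and 27.5 RPKM, above the control in all 3 libraries and within 1.5-fold. MANBA, which was not compared, was at 2.6 RPKM in the control and at 1.7, 1.7 and 1.5 RPKM.

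The lipid-handling genes held the most abundant transcripts that were lower, PSAP and GRN, as well as LIPA, the gene furthest above the control in each targeted library. PSAP (chr10:73576055-73611008 in hg19) encodes prosaposin, the precursor of the saposins that present sphingolipids to their hydrolases. It was at 484.5 RPKM in sgRNA-NT cells, 248.3 in sgRNA-AP1-69 cells, 182.1 in sgRNA-AP1-71 cells and 314.0 in sgRNA-FOXF1 cells. GRN (chr17:42422614-42430474 in hg19), which encodes progranulin, a secreted and lysosomal glycoprotein that travels with prosaposin, was at 250, 128.6, 94.6 and 140.5 RPKM. The log2 ratios of these partners were close, -0.96, -1.41 and -0.63 for PSAP and -0.96, -1.40 and -0.83 for GRN. SMPD1, the acid sphingomyelinase, was at 61.5, 40.7, 27.6 and 50.9 RPKM, lower by 1.5-fold with the enhancer guides only.

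LIPA, the acid lipase that frees cholesterol and fatty acids from lipoprotein lipids (chr10:90973326-91174314 in hg19), was at 38.9 RPKM in sgRNA-NT cells, 61.5 in sgRNA-AP1-69 cells, 52.1 in sgRNA-AP1-71 cells and 71.9 in sgRNA-FOXF1 cells. It was 1.58-fold, 1.34-fold and 1.85-fold above the control, and moved from the 15th to the 8th, 9th and 8th level among the 41 genes. NPC2, the soluble cholesterol carrier that hands its cargo to NPC1, was at 49.6, 48.2, 41.3 and 53.3 RPKM. PPT1, the thioesterase that removes palmitate from proteins, was at 49.4, 50.6, 53.8 and 45.6 RPKM. Both were within 1.5-fold of the control in each library. ASAH1, the acid ceramidase, was not compared and was listed at 2.6, 1.8, 1.4 and 1.4 RPKM. Of 6 genes of lipid handling compared, 3, 3 and 2 were lower by 1.5-fold (50%, 50% and 33.3%, against 9.93%, 14.7% and 13.2% of all genes). Higher were 1, 0 and 1 (16.7%, 0% and 16.7%, against 8.18%, 14% and 11.6%).

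In the V-ATPase, ATP6V1A, the catalytic subunit (chr3:113465617-113530903 in hg19), was at 16.9 RPKM in sgRNA-NT cells, 10.0 in sgRNA-AP1-69 cells, 10.9 in sgRNA-AP1-71 cells and 7.1 in sgRNA-FOXF1 cells. It is the gene of the set that was furthest below the control with sgRNA-FOXF1 (2.38-fold), and the single gene of 38 that was lower by 2-fold there. ATP6V1H, a regulatory subunit of the same cytosolic sector, showed a similar order with 15.7, 12.1, 11.2 and 9.2 RPKM. The accessory subunit ATP6AP1 and the membrane subunit ATP6V0A1 were instead lowest with sgRNA-AP1-71. ATP6AP1 was at 61.6, 38.6, 27.6 and 45.1 RPKM, and ATP6V0A1 at 5.3, 3.4, 2.6 and 3.6 RPKM. ATP6V0D1, which joins the membrane sector to the central stalk, was at 24.6, 27.7, 23.7 and 26 RPKM, within 1.13-fold of the control. At 1.5-fold, 3, 3 and 2 of these 5 genes were lower (60%, 60% and 40%) and none was higher. Over all genes, 9.93%, 14.7% and 13.2% were lower. TFEB was near the floor, at 1.5, 1.4, 1.4 and 1.6 RPKM, so that a difference in its transcript could not be detected here.

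The genes with a CLEAR core in the promoter were found on both sides of the 1.5-fold limit. LAMP1, GAA and CTSA were lower by 1.5-fold with both enhancer guides, whereas MCOLN1 and ATP6V0D1 passed that limit in no library. CTSL, LIPA and GLA, which lay above the control in all 3 targeted libraries, had a promoter in the table without the core, and CTSO, the other gene that did, was not in that table.

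The total of the 41 genes was 2090 RPKM in sgRNA-AP1-69 cells, 1864.1 in sgRNA-AP1-71 cells and 2453.2 in sgRNA-FOXF1 cells, log2 ratios of -0.42, -0.59 and -0.19 to the control. PSAP, GRN, CTSB and CTSZ were lower by the largest amounts of RPKM, and CTSL was higher by the largest. The proteases therefore summed to 851.7 RPKM with sgRNA-FOXF1 against 875.1 in the control, a nearly equal total of a different make-up. Ratios within a library restate these opposite differences without the control in the ratio itself. CTSL over CTSB was 1.14 in sgRNA-NT cells, 2.85 in sgRNA-AP1-69 cells, 3.11 in sgRNA-AP1-71 cells and 2.52 in sgRNA-FOXF1 cells. LIPA over SMPD1 was 0.633, 1.51, 1.89 and 1.41, and GLA over GLB1 was 0.757, 1.32, 1.59 and 1.10. Each pair was picked as a gene above the control over a gene below it, which fixes the direction, and the values are a description.

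How far both enhancer guides agreed gives the only measure of the spread between libraries. With sgRNA-AP1-71, 32 of 38 genes lay below their level with sgRNA-AP1-69 (84.2%, against 49.4% of all genes), and the median difference was -0.25 on the log2 scale. CTSD and IDUA were lower by 1.5-fold with sgRNA-AP1-71 than with sgRNA-AP1-69 (2 of 38, 5.26%, against 2.84% of all genes), and none was higher (against 2.41%). The mean of the guides was further below the control than the guides were from each other for 30 of 38 genes (78.9%, against 30.2% of all genes). The averaged median was -0.63, with an SD of 0.12 between the guides' medians (n = 2).

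A fit with limma across all 7596 genes, with both enhancer guides as a group of 2, called no lysosomal gene and 0% of all genes at an adjusted p under 0.05. Its spread for each gene comes from a single residual degree of freedom, moderated by limma over all genes. The lone control library is assumed to vary like the guides. Before adjustment, 17 of the 38 genes had a p under 0.05, 15 lower and 2 higher (CTSL and GLA), where 24.3% of all genes had one. The limma adjusted p of the 38 genes lay between 0.205 and 0.815 (Benjamini-Hochberg). For GLB1 the estimate was -0.54 ± 0.21 (SE) with a limma adjusted p of 0.248. The guides' mean thus lay further below sgRNA-NT than the guides lay apart for 30 of 38 lysosomal genes (78.9%, against 30.2% of all genes). No lysosomal gene passed the test that this design allows.

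In the single sgRNA-FOXF1 library, more of the lysosomal transcripts were near the control level than with the enhancer guides, a difference that was smaller once GC content was corrected for. Set directly against the mean of both enhancer guides, without the control library, 6 of 38 genes were higher by 1.5-fold with sgRNA-FOXF1 (5.86% of all genes were) and 0 were lower (3.54% of all genes). The median log2 difference was 0.34, and -0.03 over all genes. Higher than with each of both enhancer guides, by any amount, were 28 of 38 genes (73.7%, against 35.8%). The 6 genes were CTSF, ARSA, GAA, IDUA, GUSB and SMPD1, which were 1.88-fold, 1.82-fold, 1.68-fold, 1.65-fold, 1.59-fold and 1.52-fold higher. Lower by 1.5-fold with both enhancer guides and not with sgRNA-FOXF1 were 9 genes: ARSA, ATP6AP1, ATP6V0A1, CTSA, CTSB, GAA, GUSB, MAN2B1 and SMPD1 (23.7%, against 2.79% of all genes).

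The count of 6 genes higher by 1.5-fold with sgRNA-FOXF1 than with the enhancer guides depends on the guide taken. It was 14 against sgRNA-AP1-71 alone and 3 against sgRNA-AP1-69 alone. GC content of the transcript also moved with it: over the 38 genes, the difference between sgRNA-FOXF1 and the enhancer guides had a Spearman correlation of 0.75 with GC content, and of 0.60 over 7566 genes with a known transcript, as a description of libraries that each gene shares. IDUA, with 67.4% GC, GAA, with 64.8%, and CTSF, with 60.1%, are at the GC-rich end, and LAMP2, with 36.0%, and ATP6V1A, with 40.5%, at the other. After a correction of the ratios for GC content, chosen after seeing the data, 2 genes in place of 6 were higher by 1.5-fold, and the median difference was 0.29 against -0.02 over all genes. In the same setting 14 genes were lower than the control by 1.5-fold with sgRNA-FOXF1 (12% of all genes) and 18 with sgRNA-AP1-69 (9.73%), where 11 and 18 were without it. For the counts higher than with the enhancer guides (14, 3 and 2), the share of all genes is not given, so they have no background here. That share was 5.86% for the count of 6.

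**Figure D3:**
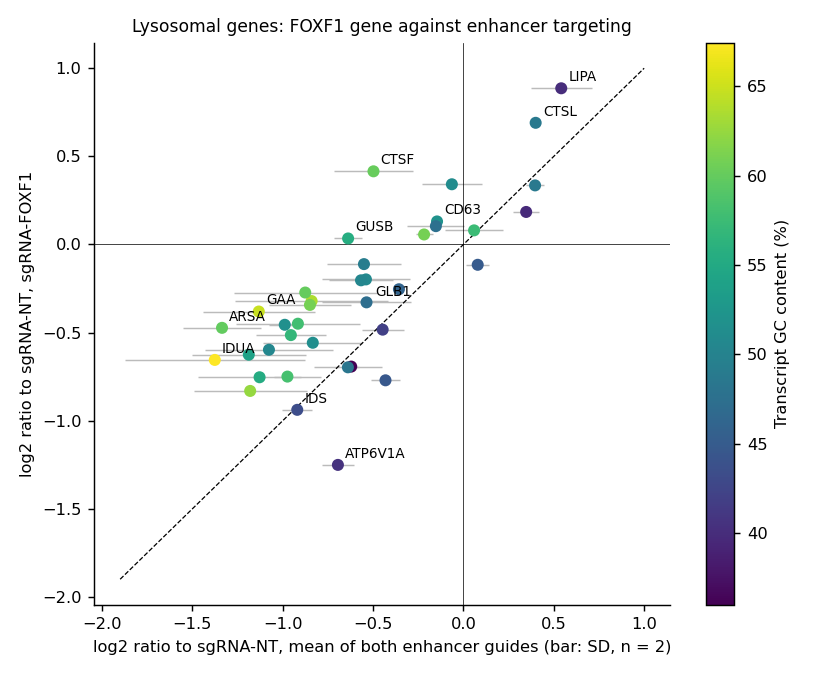
log2 ratio to sgRNA-NT with sgRNA-FOXF1 (vertical) against the mean of both enhancer guides (horizontal, bar: SD, n = 2) for 38 lysosomal genes, coloured by GC content of the transcript. Points above the dashed line of equality are higher with sgRNA-FOXF1; CTSF and GUSB lie left of 0 and above 0, and ATP6V1A lies below the line. Both axes share the sgRNA-NT library.

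Transcript length moved with the ratios as well. Over all genes with a known length, the Spearman correlation of length and log2 ratio was -0.50 and -0.44 for the enhancer guides 69 and 71 and -0.45 for the FOXF1 guide, and over the lysosomal genes it was -0.38, -0.30 and -0.38 (n = 38). The lysosomal transcripts were not long, with a median of 2347 nt against 2902 nt over all genes compared. In each of 3 length classes their medians were below those of all genes. Under 2000 nt, 9 lysosomal genes had medians of -0.04, -0.18 and 0.10, and all genes 0.30, 0.35 and 0.29. From 2000 to 3000 nt, 16 lysosomal genes had medians of -0.52, -0.74 and -0.30, and all genes 0.12, 0.12 and 0.13. From 3000 nt on, 13 lysosomal genes had medians of -0.69, -0.98 and -0.47, and all genes -0.14, -0.14 and -0.17. With ratios corrected for length, 17, 22 and 10 of the 38 genes were lower by 1.5-fold, and 7.38%, 12.1% and 10.3% of all genes.

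Lysosomal genes outside the 43 were read from lists written from general knowledge. Among 27 compared hydrolases not in the set, 6, 11 and 6 were lower by 1.5-fold (22.2%, 40.7% and 22.2%). Over all genes, 9.93%, 14.7% and 13.2% were lower. Higher were 1, 1 and 3 (3.7%, 3.7% and 11.1%), against 8.18%, 14% and 11.6% of all genes. The medians of these hydrolases were -0.33, -0.51 and -0.13. PLBD2, a phospholipase-like protein of the lysosome, was at 31.7, 11.4, 7.2 and 16.3 RPKM. It lay below the control in each library.

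Of 19 further membrane proteins, 1, 6 and 4 were lower (5.26%, 31.6% and 21.1%) and none higher. Over all genes, 9.93%, 14.7% and 13.2% were lower, so with sgRNA-AP1-69 the share of these proteins was below the background. Their medians were -0.25, -0.50 and -0.13. SORT1, a sorting receptor for lysosomal cargo that includes progranulin and prosaposin, was at 9.5, 6.2, 6.4 and 4.6 RPKM. TMEM63A, a mechanosensitive channel, was at 4.5, 3.4, 2.7 and 3.0 RPKM, and OSTM1, the partner of the lysosomal chloride exchanger, was at 5.7, 4.5, 3.8 and 3.7 RPKM. The 10 other V-ATPase subunits were mostly near the control, with medians of 0.03, 0.00 and -0.21. Lower were 2, 2 and 3 of them (20%, 20% and 30%, against the same shares of all genes). The accessory subunit ATP6AP2 was at 10.0, 4.8, 4.7 and 4.9 RPKM, ATP6V1C1 at 7.0, 4.5, 4.4 and 3.2 RPKM, and ATP6V1G1 at 66.6, 52.6, 49.6 and 31.4 RPKM. ATP6V1C1 and ATP6V1G1, both of the cytosolic sector, were lowest with sgRNA-FOXF1, as ATP6V1A and ATP6V1H were.

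In the pathway that delivers hydrolases by mannose 6-phosphate, 1, 3 and 3 of 12 compared genes were lower (8.33%, 25% and 25%) and none higher. Over all genes, 9.93%, 14.7% and 13.2% were lower, so with sgRNA-AP1-69 the share of this pathway was below the background. Its medians were -0.12, -0.28 and 0.02. IGF2R, the large receptor for mannose 6-phosphate, was at 46.3 RPKM in the control and then 18.8, 13.6 and 18.5, more than 2-fold below the control in each library. GNPTAB, the enzyme that starts the tag, was at 3.7, 2.6, 2.2 and 1.6 RPKM, and AP1G1, an adaptor subunit of the Golgi coat (not of the transcription factor AP-1), was at 6.7, 4.7, 4.8 and 3.5 RPKM. Among 12 relatives of TFEB and genes of lysosomal nutrient sensing, 0, 3 and 1 were lower (0%, 25% and 8.33%) and none higher. Only with sgRNA-AP1-71 was that share above the one over all genes. The medians of this list were 0.14, -0.02 and 0.01. MTOR, the kinase that holds TFEB in the cytosol when nutrients are present, was at 11.7, 8.1, 7.6 and 6.7 RPKM. MITF, a relative of TFEB, and TSC1, an inhibitor of MTOR signalling, lay under the filter, at 3.1, 1.7, 1.1 and 1.0 RPKM and at 3.1, 1.5, 1.6 and 1.4 RPKM. TFE3, named after its values were seen because it is the most abundant relative of TFEB here, was at 59.7, 51.8, 45.8 and 56.0 RPKM, within 1.5-fold of the control.

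**Figure D4:**
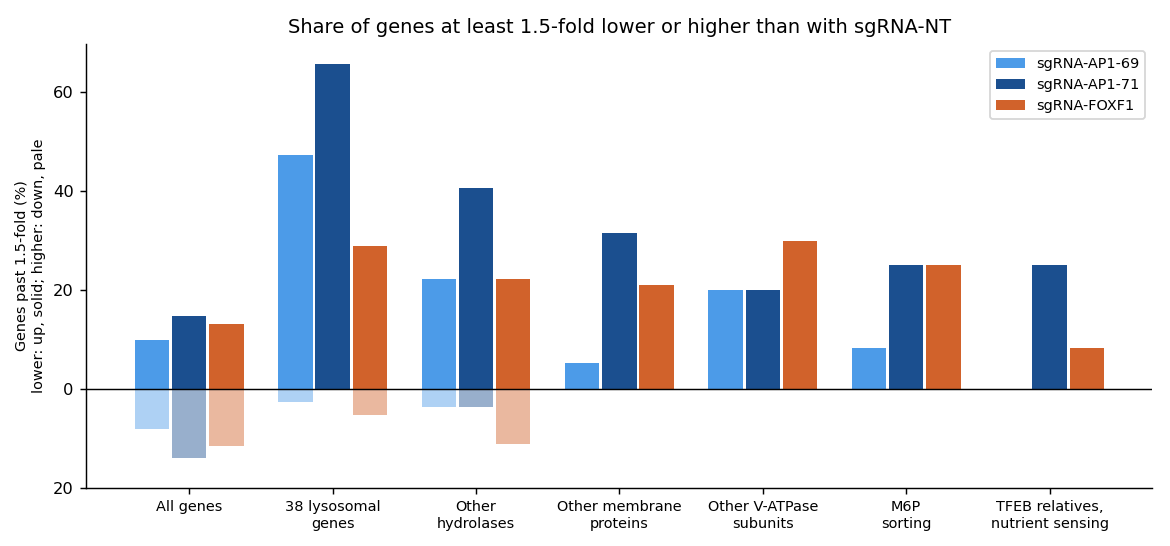
Share of genes (%) at least 1.5-fold lower than with sgRNA-NT (solid bars, upwards) or higher (pale bars, downwards) in each targeted library, for all 7596 genes compared, the 38 lysosomal genes and 5 lists of related genes. The lysosomal genes have the tallest solid bars with both enhancer guides, 47.4% and 65.8%, and the V-ATPase list has a share of 20% or 30% in each library from only 10 genes.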

How the data were processed

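The deposited values are RPKM for 12033 genes with a floor of 1: TopHat2 (hg19) and HTSeq-count, run by the authors, gave gene counts, which they scaled by GENCODE v25 models and then quantile-normalized across the 4 libraries. For both tools the version is not given in the sources used. The paper and the labels name different RNA reagents and library kits (stranded in the paper), so strand use in counting is uncertain. The table also holds 3 columns of the authors' log2 ratios to sgRNA-NT, which were not used. Read counts were not at hand, so depth is unknown, and values are given to 1 decimal.

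Members and lists were chosen with earlier results of these data known. Log2 ratios were computed without a pseudocount for genes whose mean reached 2 RPKM, and counted at 1.5-fold beside all genes. Named were GLB1, TFEB, genes past 1.5-fold in all 3 targeted libraries, the most abundant and most different gene of each role, FOXF1, and up to 3 genes of each other list. The remaining members are given as counts or values. Some genes that this rule names are not reported here. limma 3.58.1 (R 4.3.3) was run on log2 RPKM with its variance trend and was tested on simulated data before use. With guides as the only replicates, its p-values weigh a difference against the spread between guides, moderated over genes. That spread may be technical. Transcript lengths, GC content and hg19 positions are those of canonical transcripts in GENCODE lifted to GRCh37, found for 7566 of 7596 genes and all 38 members. Promoter windows are from RefSeq (GRCh38.p14). Alternatives were another pseudocount, centring, filter, fold, guide or limma setting, and corrections for length or, added later, GC content. Python 3.11.15 with numpy 2.4.6, pandas 2.3.3, scikit-learn 1.9.0 and matplotlib 3.10.9 was used.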

Additional observations from a re-analysis of the deposited data

Results flagged for a closer look

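A pair of genes lay on opposite sides of sgRNA-NT depending on the target, below it with both enhancer guides and above it with sgRNA-FOXF1, with more than 1.5-fold between sgRNA-FOXF1 and each guide. The log2 ratio of CTSF was -0.34 in sgRNA-AP1-69 cells, -0.65 in sgRNA-AP1-71 cells and 0.42 in sgRNA-FOXF1 cells. That of GUSB was -0.69, -0.58 and 0.034, so that with sgRNA-FOXF1 it was at the control level. With 1 sgRNA-FOXF1 library these differences were not tested. Both transcripts are GC-rich (60.1% for CTSF and 55.5% for GUSB), and the part of GC content in the differences was not tested gene by gene.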

How the results depend on the processing

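Of 85 recomputed values, 73 stayed within the spread or within 1.5 times the count, and 12 moved by more. Counts have no sign that could reverse. Each recomputed median and GLB1 ratio against sgRNA-NT stayed negative. No paired analysis was possible because each condition has 1 library. At 2-fold, 2 members were lower in sgRNA-AP1-69 cells, 15 in sgRNA-AP1-71 cells and 1 in sgRNA-FOXF1 cells, and 0 were higher with sgRNA-AP1-69 and 0 with sgRNA-FOXF1. With ratios corrected for transcript length, 0 members were higher by 1.5-fold with sgRNA-AP1-69 and 1 with sgRNA-FOXF1. After the correction for GC content, added after the data were seen, the median with sgRNA-FOXF1 was -0.51 in place of -0.34, and 2 members were higher with sgRNA-FOXF1 than with the enhancer guides in place of 6. With each guide left out in turn, that count lay between 3 and 14, and 0 to 1 members were lower. For these alternative counts against the enhancer guides the share of all genes is not given, so they have no background here. Apart from the 2-fold rule, lower members numbered 14 to 20, 20 to 27 and 9 to 14 in the 3 libraries under the alternatives. These settings compared 31 to 41 members. The shares of all genes were 7.38% to 12%, 12% to 17.1% and 10.3% to 14.8%. With limma, 0 members were called in any of 5 alternative fits, where 13 to 20 had an unadjusted p under 0.05 (31.7% to 61.3% of members, against 16.6% to 27.2% of all genes). Over all genes, calls appeared only in the fit with every gene kept. There, 2421 of 12033 genes were at the floor of 1 RPKM in all libraries and so had no spread between guides. The absence of members among those calls is not read as a result.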
